A study of Homo sapiens with 8 samples.

Results

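The grainyhead-like transcription factors GRHL1, GRHL2 and GRHL3 and 4 genes of the differentiating epidermis, FLG, HRNR, ABCA12 and SFN, were followed in HCT-116 cells through 4 drug treatments. These 7 genes, of 23857 genes in the deposited tables, had been picked because several of them rose strongly with 5-fluorouracil (5-FU). HCT-116 is a human colorectal carcinoma line with wild-type p53. The treatments, with 2 libraries of total RNA each, were 5-FU then 3-MB-PP1, 5-FU then DMSO, DMSO then 3-MB-PP1, and DMSO then DMSO. The first step was 40 µM 5-FU or the solvent DMSO for 12 h, and the second was 2.5 µM 3-MB-PP1 or DMSO for 4 h. 5-FU is a pyrimidine analogue that blocks thymidylate synthesis and activates p53. 3-MB-PP1 is a bulky kinase inhibitor designed for kinases with an enlarged ATP pocket; the study's title and design text concern Cdk7 and p53, and the kinase allele of these cells is not given in the labels. All 4 groups carried the same cells, and the labels do not say whether the replicates were separate cultures, so each p-value measures the spread between these libraries, which may be technical.

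The epidermis makes its barrier as keratinocytes leave the basal layer and die into flattened corneocytes. GRHL factors are DNA-binding proteins related to Drosophila grainy head that act in epithelial junctions, wound closure and barrier formation, and GRHL3 is the member most closely tied to the final steps of epidermal differentiation. Filaggrin (FLG) and hornerin (HRNR) are long repetitive proteins encoded side by side in the epidermal differentiation complex on chromosome 1. ABCA12 loads lipids into the lamellar granules that waterproof the skin. SFN encodes 14-3-3 sigma, or stratifin, a protein of stratified epithelia that is also a well known p53 target and halts the cell cycle at G2. A colorectal line is not a keratinocyte, and the epidermal genes are described here as transcripts.

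RefSeq promoter sequences (GRCh38.p14) were found for 6 of the 7 genes, GRHL2 being the gene without an entry, and gave 8 start sites in all. The 250 bases before 4 of these starts are shown, because the genes they belong to had the largest changes with 5-FU and because each holds a short motif. Each runs 5′ to 3′ on the strand of its gene, and capitals mark a 10-base p53 half-site or the motif TATAAA. HRNR is the only one of the 4 with both. The other 4 starts, which are the first of GRHL3, the second of ABCA12 and those of SFN and GRHL1, held neither. The GRHL3 transcript used for the levels is one of those that begin furthest upstream, so the second start is not its own.
GRHL3, second start, chr1:24322790-24323039, plus strand: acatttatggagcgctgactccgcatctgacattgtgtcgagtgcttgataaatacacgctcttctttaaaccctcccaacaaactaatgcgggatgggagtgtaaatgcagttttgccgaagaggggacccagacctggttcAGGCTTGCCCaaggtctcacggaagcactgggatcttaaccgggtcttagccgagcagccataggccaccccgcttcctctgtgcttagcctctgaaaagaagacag
HRNR, chr1:152224194-152224443, minus strand: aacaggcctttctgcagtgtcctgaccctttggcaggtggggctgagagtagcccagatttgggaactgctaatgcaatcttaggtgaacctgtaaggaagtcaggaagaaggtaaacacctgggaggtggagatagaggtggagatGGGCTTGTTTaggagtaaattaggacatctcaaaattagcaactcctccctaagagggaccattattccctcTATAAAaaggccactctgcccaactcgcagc
FLG, chr1:152325240-152325489, minus strand: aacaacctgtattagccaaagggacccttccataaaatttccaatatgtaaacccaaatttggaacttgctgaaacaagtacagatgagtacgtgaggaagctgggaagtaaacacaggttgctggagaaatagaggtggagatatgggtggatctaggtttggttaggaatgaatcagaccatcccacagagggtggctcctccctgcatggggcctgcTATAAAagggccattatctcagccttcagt
ABCA12, first start, chr2:215138627-215138876, minus strand: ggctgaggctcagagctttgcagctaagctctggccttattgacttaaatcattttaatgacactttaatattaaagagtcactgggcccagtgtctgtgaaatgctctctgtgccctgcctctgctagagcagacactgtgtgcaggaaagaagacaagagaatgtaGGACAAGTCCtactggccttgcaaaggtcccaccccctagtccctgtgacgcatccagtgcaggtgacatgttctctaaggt
The half-site began 107 bases before the GRHL3 start, 103 before that of HRNR and 82 before that of ABCA12. It was searched on both strands, and 5.57% of all 35116 promoters held it in the same 250 bases. TATAAA, searched on the strand of the gene, began 31 bases before the HRNR start and 30 before the FLG start, and 6.80% of all promoters held it. The GRHL consensus AACCGGTT, searched on both strands, was in 0.117% of all promoters and in none of the 8, and the looser AACCNGTT, which includes it, was in 1.49% and again in none of the 8. The FLG and HRNR stretches matched at 167 of 221 aligned bases (75.6%). A match is a description of these letters, and an absence says only that the letters are not in this window.

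Levels are given in CPM, which are counts scaled to 1e6 per library after adjustment of the library size by its TMM factor. The libraries held between 10575636 and 16755562 counts on genes, except for replicate 1 of DMSO then 3-MB-PP1, which held 50478029. Intestinal epithelial markers summed to between 2734 and 4856 CPM in the 8 libraries, with VIL1 at 6 counts or fewer in each. Most of each sum came from KRT8, KRT18 and KRT19. The defining keratinocyte markers were at or near 0 throughout: IVL and LOR had no count in any library, TP63 had at most 2, KRT1 at most 1, DSG1 at most 3, KRT14 at most 5 and KRT5 at most 7. The keratinocyte list of 9 genes summed to between 23.3 and 30.2 CPM in the 8 libraries, almost all of it from KRT10 and DSG3.

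**Figure D1:**
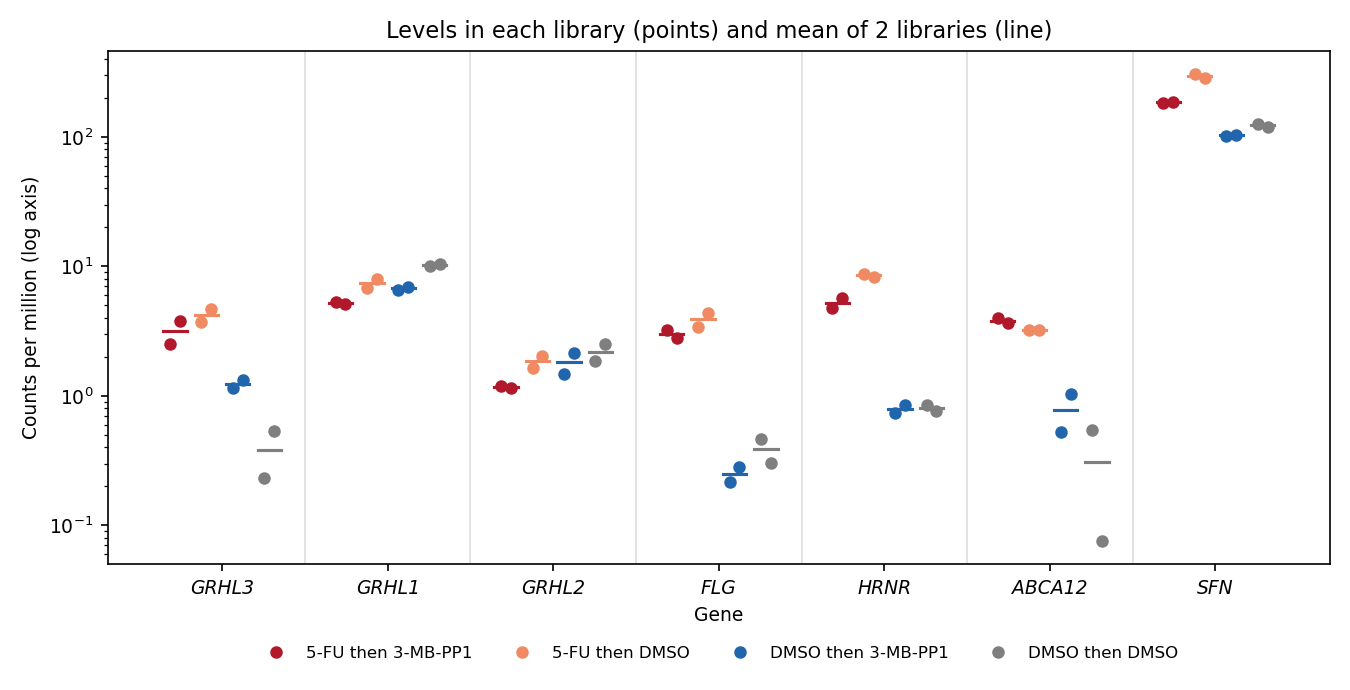
Level of each of the 7 genes in CPM, on a log axis, with 1 point per library and a line at the mean of the 2 libraries of each treatment. FLG, HRNR and ABCA12 sit at 2.78 or more in each of the 4 libraries with 5-FU and at 1.03 or less in each of the 4 without it, while GRHL1 and GRHL2 do not.

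With 5-FU before 3-MB-PP1, 5 of the 7 genes were higher than with 3-MB-PP1 without 5-FU. FLG, HRNR, ABCA12, GRHL3 and SFN rose, and GRHL1 and GRHL2 did not pass the test. Of the 15704 genes tested in that comparison, 19.6% were called higher and 19.8% lower at an adjusted p under 0.05 (3084 and 3115 genes, against 20 and 120 under scaling to the ERCC spike-ins). The 5 genes ranked from 1 (FLG) to 478 (SFN) by log2 fold change. Fold changes are log2 values from edgeR's quasi-likelihood fit with Benjamini-Hochberg adjustment over all genes tested, each with its standard error. The choice of the genes named a rise with 5-FU but not the libraries it was read from. The contrast of choice is taken here to be 5-FU alone, which shares no library with this comparison. If this comparison was also in view, its p-values for the 7 genes are not independent of the choice. Under spike-in scaling, where the median of all genes in this comparison was -0.189, FLG, HRNR and ABCA12 kept their calls and GRHL3 (1.30, adjusted p = 0.527) and SFN (0.63, adjusted p = 1.00) lost theirs. No gene of the 7 passed under that scaling in the 2 comparisons of 3-MB-PP1 described further on.

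In 5-FU alone, 5-FU then DMSO is set against DMSO then DMSO, and its values for the 7 genes are descriptive and carry no test. They were 3.43 ± 0.38 for GRHL3, 3.32 ± 0.37 for FLG, 3.38 ± 0.25 for HRNR, 3.36 ± 0.45 for ABCA12 and 1.27 ± 0.06 for SFN (log2 fold change ± SE), and that of GRHL3 was 4.14 without replicate 2 of DMSO then DMSO. GRHL1 stood at -0.46 ± 0.14 and GRHL2 at -0.25 ± 0.30, so the description of a gene set raised by 5-FU applied to 5 of its 7 members. In that contrast 21.2% of genes tested were called higher and 22.6% lower (3335 and 3555 genes, against 93 and 150 under spike-in scaling). Both comparisons of 3-MB-PP1 share libraries with it: 3-MB-PP1 alone shares DMSO then DMSO, and 3-MB-PP1 after 5-FU shares 5-FU then DMSO. The p-values of the 7 genes in them are therefore not independent of the choice.

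**Figure D2:**
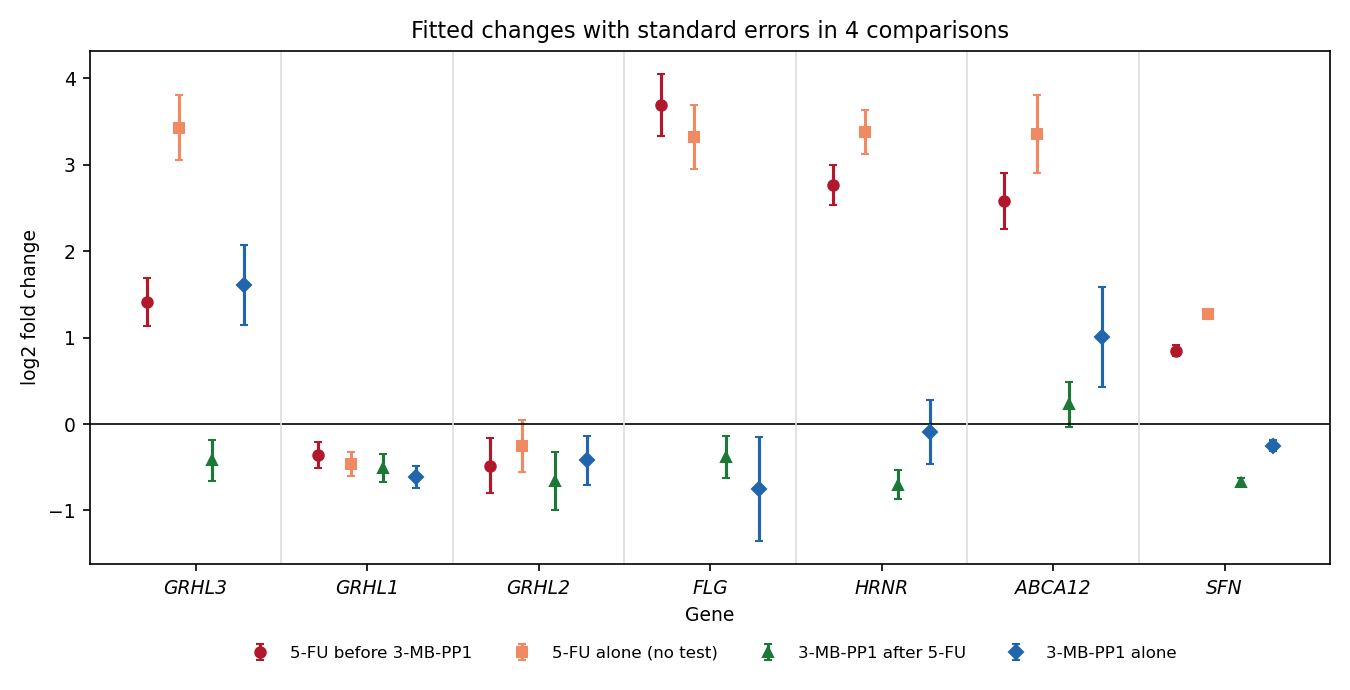
Log2 fold change with its standard error for each gene in 4 comparisons. The values of 5-FU alone carry no test; GRHL1 and GRHL2 lie below 0 in all 4 comparisons, and GRHL3 is lower under 5-FU before 3-MB-PP1 (1.41) than under 5-FU alone (3.43).

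GRHL3, the factor of late epidermal differentiation, had 2.53 and 3.78 CPM after 5-FU then 3-MB-PP1, 3.75 and 4.68 after 5-FU then DMSO, 1.15 and 1.32 after DMSO then 3-MB-PP1, and 0.234 and 0.533 after DMSO then DMSO. The lowest levels were those of cells that saw neither drug, where the 2 libraries held 3 and 7 counts. Each drug given by itself left the gene above that level, and the 2 groups with 5-FU overlapped each other. 5-FU before 3-MB-PP1 raised it by 1.41 ± 0.28 (adjusted p = 0.000202).

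GRHL3 was also the 1 gene of the 7 called higher with 3-MB-PP1 alone, by 1.61 ± 0.46 (adjusted p = 0.00990, higher in both treated libraries than in both DMSO libraries). A choice of genes that were low after DMSO then DMSO favours such a rise, so the p is not independent evidence of it. In that comparison 11.6% of genes tested were called higher and 16.9% lower (1822 and 2653 genes, against 107 and 5 under spike-in scaling, where the median of all genes was 0.189). The call rested on replicate 1 of DMSO then DMSO: without it the change was 1.14 and the adjusted p 0.160, and without replicate 2 the change was 2.31 with an adjusted p of 0.0219. After 5-FU, 3-MB-PP1 left GRHL3 at -0.42 ± 0.24, which did not pass (adjusted p = 0.196). The difference between these 2 responses to 3-MB-PP1 was -2.02 ± 0.52, the most negative of the 7, and is given without a test because it contains the contrast of 5-FU alone; without replicate 2 of DMSO then DMSO it was -2.73.

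GRHL3 has 4 transcripts in the tables, and the one with the most counts was used (NM_198173, chr1:24645812-24681808 in hg19, plus strand). The other 3 share most of their exons with it and had 27.38 to 35.00 counts on average over the 8 libraries, against 37.38 for the one used. No counts single out one start site. In GENCODE 29 the gene is overlapped on the opposite strand by STPG1 and the antisense gene AL138902.1, neither of which shares exon bases with it. Whether reads were counted by strand is not given in the sources used here.

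GRHL1 was highest in cells that saw neither drug. It had 5.30 and 5.10 CPM after 5-FU then 3-MB-PP1, 6.85 and 7.98 after 5-FU then DMSO, 6.57 and 6.96 after DMSO then 3-MB-PP1, and 10.0 and 10.4 after DMSO then DMSO. The DMSO then DMSO libraries were highest, the libraries with both drugs were lowest, and those with a single drug lay between and overlapped each other. GRHL1 fell by 0.61 on the log2 scale with 3-MB-PP1 alone (SE 0.13, adjusted p = 0.00114).

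With 3-MB-PP1 after 5-FU, GRHL1 fell by 0.51 on the log2 scale (SE 0.16, adjusted p = 0.0163). In that comparison 15.7% of genes tested were called higher and 17.2% lower (2467 and 2703 genes, against 41 and 12 under spike-in scaling). The call was lost without replicate 1 of 5-FU then 3-MB-PP1 (-0.55, adjusted p = 0.0598), without its replicate 2 (-0.50, adjusted p = 0.0932), without replicate 2 of 5-FU then DMSO (-0.40, adjusted p = 0.135) and under DESeq2 (-0.51, adjusted p = 0.123). 5-FU before 3-MB-PP1 left GRHL1 at -0.36 ± 0.15, which did not pass (adjusted p = 0.0667). The kept transcript is NM_198182 (chr2:10091792-10142412 in hg19, plus strand), and no other gene of GENCODE 29 overlaps it.

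GRHL2, a factor of epithelial identity in many organs, had the smallest share of the 3 per length in cells with 5-FU, from 7.49% to 9.22% of their summed RPKM. It had 1.19 and 1.16 CPM after 5-FU then 3-MB-PP1, 1.65 and 2.04 after 5-FU then DMSO, 1.48 and 2.16 after DMSO then 3-MB-PP1, and 1.87 and 2.51 after DMSO then DMSO. The libraries with both drugs lay below all others, and the remaining 3 groups overlapped. None of the 3 tests passed: the change was -0.48 ± 0.32 with 5-FU before 3-MB-PP1 (adjusted p = 0.258), -0.66 ± 0.34 with 3-MB-PP1 after 5-FU (adjusted p = 0.147) and -0.42 ± 0.28 with 3-MB-PP1 alone (adjusted p = 0.282). With 15 counts in each library that had both drugs, the 95% interval of the ratio of summed counts for 5-FU before 3-MB-PP1 ran from 0.470 to 1.11, counting error only. For 3-MB-PP1 after 5-FU the same interval ran from 0.394 to 0.999, just below a ratio of 1.

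The make-up of GRHL transcripts differed between the groups. Per length of transcript, in the authors' RPKM (reads per kilobase and per 1e6 reads of the library), GRHL3 was 34.2% and 44.6% of the summed RPKM of the 3 genes after 5-FU then 3-MB-PP1, and 37.1% and 38.5% after 5-FU then DMSO. Its share was 16% and 16.4% after DMSO then 3-MB-PP1 and 2.54% and 5.26% after DMSO then DMSO. GRHL1 held the largest share in all 8 libraries, from 47.9% in replicate 2 of 5-FU then 3-MB-PP1 to 86.4% in replicate 1 of DMSO then DMSO. The shares are a description, since the rise of GRHL3 with 5-FU was among the reasons the genes were picked.

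**Figure D3:**
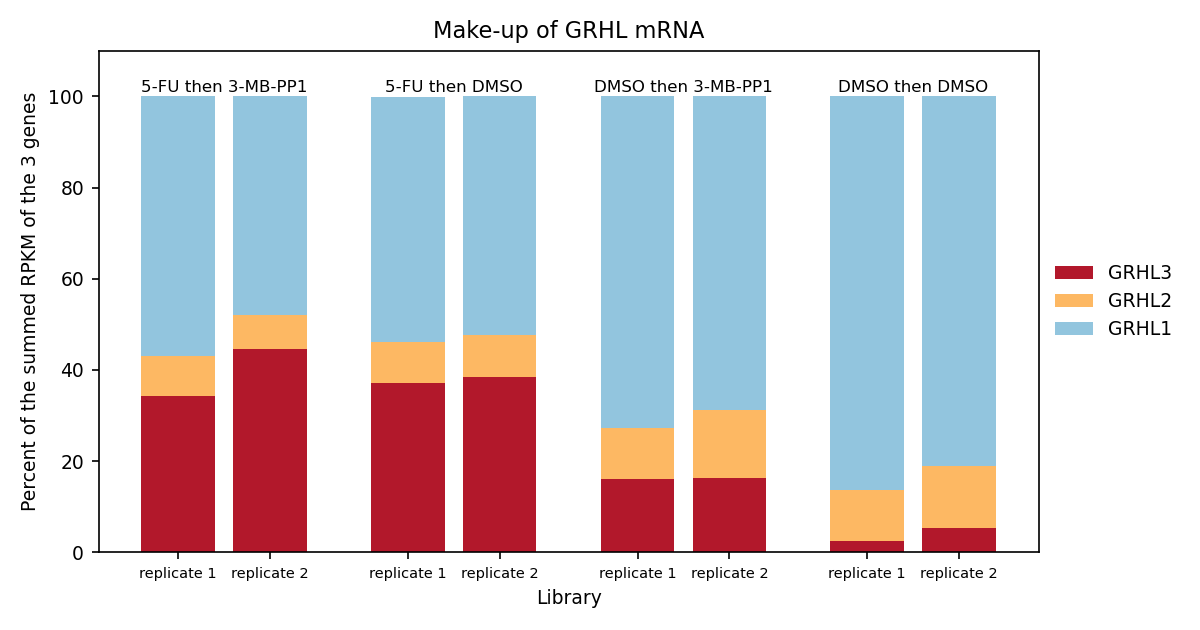
Share of GRHL1, GRHL2 and GRHL3 in the summed RPKM of the 3 genes, with 1 bar per library. GRHL3 makes up 34.2% to 44.6% in the 4 libraries with 5-FU, 16% and 16.4% with 3-MB-PP1 alone, and 2.54% and 5.26% with neither drug.

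Of 3 relatives in the LSF (CP2) branch of the same protein family, TFCP2, TFCP2L1 and UBP1, 0 rose and 2 fell with 5-FU before 3-MB-PP1 (median -0.20). Among all genes tested, 19.6% were called higher and 19.8% lower there. TFCP2L1 was at -0.48 (adjusted p = 0.00182) and UBP1 at -0.20 (adjusted p = 0.0212). Neither passed under spike-in scaling (-0.68 and -0.46). Both calls were lost without 1 library: TFCP2L1 was then at -0.33 (adjusted p = 0.0865, without replicate 2 of 5-FU then 3-MB-PP1), and UBP1 at -0.16 without that library and -0.12 without replicate 2 of DMSO then 3-MB-PP1 (adjusted p = 0.180 and 0.202).

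FLG, the filament-aggregating protein of the granular layer, had 3.24 and 2.78 CPM after 5-FU then 3-MB-PP1, 3.42 and 4.38 after 5-FU then DMSO, 0.215 and 0.282 after DMSO then 3-MB-PP1, and 0.467 and 0.305 after DMSO then DMSO. Every library with 5-FU lay above every library without it. 5-FU before 3-MB-PP1 raised FLG by 3.69 ± 0.36 (adjusted p = 6.32e-09), the largest log2 fold change of the 15704 genes tested. The sums were 77 counts in the 2 libraries of 5-FU then 3-MB-PP1 and 14 in those of DMSO then 3-MB-PP1, and the scaled ratio had a 95% interval of 7.47 to 25.5 (counting error only).

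FLG passed the filter on low counts only through the 4 libraries that had 5-FU, in which it exceeded 0.758 CPM. This favours a rise, and its rank holds among the genes that passed the filter. Without that filter its call stayed. With 3-MB-PP1 FLG did not pass, at -0.38 ± 0.24 after 5-FU (adjusted p = 0.236) and -0.75 ± 0.60 alone (adjusted p = 0.382). At 3 to 11 counts in each library without 5-FU, the 95% interval of the ratio for 3-MB-PP1 alone ran from 0.243 to 1.48, so counting error alone does not exclude a ratio of 1.

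HRNR, a close relative of FLG in the cornified envelope, had 4.75 and 5.71 CPM after 5-FU then 3-MB-PP1, 8.76 and 8.28 after 5-FU then DMSO, 0.741 and 0.847 after DMSO then 3-MB-PP1, and 0.857 and 0.762 after DMSO then DMSO. The libraries with both drugs lay between those with 5-FU alone and those without 5-FU, and the 2 groups without 5-FU overlapped. 5-FU before 3-MB-PP1 raised HRNR by 2.77 ± 0.23 (adjusted p = 4.53e-10, rank 7).

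A choice of genes that were high after 5-FU then DMSO favours a fall with 3-MB-PP1 after 5-FU. HRNR fell there by 0.70 on the log2 scale (SE 0.17, adjusted p = 0.00245, not independent evidence of the fall). This call was lost without replicate 1 of 5-FU then 3-MB-PP1 (-0.58, adjusted p = 0.0551) and under DESeq2 (-0.70, adjusted p = 0.0820). With 3-MB-PP1 alone HRNR stood at -0.09 ± 0.37 (adjusted p = 0.891).

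FLG (NM_002016, chr1:152274651-152297679) and HRNR (NM_001009931, chr1:152184558-152196669) are both on the minus strand of hg19, and 77.98 kb of sequence lies between them. In GENCODE 29 the antisense gene FLG-AS1 spans both; its exons share 704 of the 12747 exon bases of FLG and none of those of HRNR. FLG-AS1 also spans FLG2, which had 3.88 and 3.78 CPM after 5-FU then 3-MB-PP1 and 3.84 and 2.82 after DMSO then 3-MB-PP1. As the use of strand is unknown, sense and antisense reads of FLG cannot be told apart. Both genes consist largely of internal repeats, and how reads with several matches were treated is not given in the sources used here.

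ABCA12, the lipid transporter of lamellar granules, had 3.96 and 3.63 CPM after 5-FU then 3-MB-PP1, 3.23 and 3.24 after 5-FU then DMSO, 0.527 and 1.03 after DMSO then 3-MB-PP1, and 0.545 and 0.0762 after DMSO then DMSO. Libraries with 5-FU were again all above those without it, and the 2 groups without 5-FU overlapped. 5-FU before 3-MB-PP1 raised ABCA12 by 2.58 ± 0.32 (adjusted p = 3.42e-07, rank 10). ABCA12 exceeded 0.758 CPM in each library with 5-FU but in only 1 without it, of DMSO then 3-MB-PP1. It therefore passed the filter on low counts through the libraries with 5-FU, which favours a rise. Without replicate 1 of DMSO then 3-MB-PP1 the rise was 1.86 (adjusted p = 0.00127).

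Among the 7 genes, ABCA12 had the single positive change with 3-MB-PP1 after 5-FU, 0.23 ± 0.26, which did not pass (adjusted p = 0.544). With 3-MB-PP1 alone it was at 1.01 ± 0.58 (adjusted p = 0.210), and this value turned on replicates of DMSO then DMSO that held 7 counts and 1 count. Without replicate 1 it was 2.94 (adjusted p = 0.0477), and without replicate 2 it was 0.20 (adjusted p = 0.867). The descriptive change with 5-FU alone likewise ranged from 2.55 without replicate 2 to 5.29 without replicate 1. The kept transcript is NM_173076 (chr2:215796266-216003151 in hg19, minus strand), and the antisense genes AC016708.1 and AC072062.1 overlap ABCA12 in GENCODE 29, the second by 58 exon bases.

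Of the 8 other ABCA genes tested, 1 rose and 1 fell with 5-FU before 3-MB-PP1, where 19.6% of all genes were called higher and 19.8% lower. ABCA7 rose (0.48, adjusted p = 3.66e-06) and ABCA2 fell (-0.32, adjusted p = 0.000313), and the median of the 8 was -0.12. Neither gene passed under spike-in scaling (0.29 for ABCA7 and -0.56 for ABCA2). No test of the difference between ABCA12 and its relatives was made.

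SFN, or 14-3-3 sigma, was by far the most abundant of the 7 per length, at 77.7 to 233 RPKM, against at most 2.81 for any of the other 6 genes. It had 184 and 186 CPM after 5-FU then 3-MB-PP1, 305 and 283 after 5-FU then DMSO, 102 and 103 after DMSO then 3-MB-PP1, and 125 and 120 after DMSO then DMSO. The 4 groups did not overlap, and the order was 5-FU then DMSO, 5-FU then 3-MB-PP1, DMSO then DMSO and, lowest, DMSO then 3-MB-PP1. SFN rose with 5-FU before 3-MB-PP1 by 0.85 ± 0.06 (adjusted p = 3.33e-12).

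SFN fell with 3-MB-PP1 after 5-FU by 0.67 on the log2 scale (SE 0.05, adjusted p = 1.10e-09). With 3-MB-PP1 alone SFN fell by 0.25 (SE 0.06, adjusted p = 0.00147). Both comparisons share a group with 5-FU alone, and a choice of genes high after 5-FU then DMSO favours the first fall. Under spike-in scaling the value with 3-MB-PP1 alone was -0.02 (adjusted p = 1.00). The difference between these 2 responses was -0.41 ± 0.08, given without a test. Its transcript has a single exon (NM_006142, chr1:27189633-27190947 in hg19, plus strand) and overlaps no other gene of GENCODE 29. Of the 6 other 14-3-3 genes, 0 rose with 5-FU before 3-MB-PP1, where 19.6% of all genes were called higher and 19.8% lower. Of these 6, 1 fell, YWHAH (-0.48, adjusted p = 9.38e-08), and 5 did not pass. The median of the 6 was 0.01, and -0.23 under spike-in scaling, where YWHAH (-0.70) did not pass.

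CDKN1A, MDM2 and GDF15, which are known p53 targets, were read as transcripts in the same libraries, and all 3 rose with 5-FU before 3-MB-PP1. The activity of p53 itself was not measured. CDKN1A, which encodes the p21 cell cycle inhibitor, had 849 and 817 CPM after 5-FU then 3-MB-PP1 and 170 and 163 after DMSO then 3-MB-PP1 (2.31 ± 0.05, adjusted p = 2.93e-21). MDM2, the ubiquitin ligase of p53, was at 1.36 ± 0.05 and the cytokine GDF15 at 2.30 ± 0.07. With spike-in scaling the rise of MDM2 was 1.14 and did not pass (adjusted p = 0.547). All 3 fell with 3-MB-PP1 after 5-FU: CDKN1A was at -0.89 (adjusted p = 2.57e-13), MDM2 at -1.25 (adjusted p = 3.43e-16) and GDF15 at -0.66 (adjusted p = 2.77e-08). Of the 7 described genes, HRNR (-0.70) and SFN (-0.67) had values between those of MDM2 and GDF15. The choice of genes high after 5-FU then DMSO favoured a fall of both HRNR and SFN. GRHL2 was at -0.66, which did not pass, and GRHL1 at -0.51. FLG, GRHL3 and ABCA12 stood between -0.42 and 0.23 and did not pass. Differences among the 7 genes in this response were not tested, and neither was a part of p53 in it.

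FLG and HRNR lie in the epidermal differentiation complex, a cluster of barrier genes flanked by S100 genes, and the 1651 kb from S100A10 to S100A13 held 63 genes in the tables. Of these, 35 had no count in any library and 14 passed the filter. Of the 12 tested besides FLG and HRNR, 9 rose with 5-FU before 3-MB-PP1, 0 fell and 3 did not pass, where 19.6% of all genes were called higher and 19.8% lower. Among the 9, TCHH passed the filter on low counts only through 5-FU then 3-MB-PP1 (1.03 and 0.849 CPM, elsewhere 0.724 or less). S100A1 passed it through the libraries with 5-FU (0.772 to 1.42 CPM, against 0.488 to 0.762 without 5-FU). The filter favoured a rise of both, so the count of 9 is a description. FLG and HRNR had the largest changes of the 14. TCHH, or trichohyalin, a fused-type S100 protein of the hair sheath, was at 1.61 ± 0.49 (adjusted p = 0.0108); it had 13 and 11 counts after 5-FU then 3-MB-PP1 and 18 counts and 1 count after DMSO then 3-MB-PP1. Without replicate 1 of 5-FU then 3-MB-PP1 it was at 1.47 (adjusted p = 0.106), and without replicate 1 of DMSO then 3-MB-PP1 at 3.20. Under spike-in scaling it was at 1.79 and did not pass (adjusted p = 0.309). FLG2, next to FLG and of the same type, stood at 0.09 ± 0.21 (adjusted p = 0.760).

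**Figure D4:**
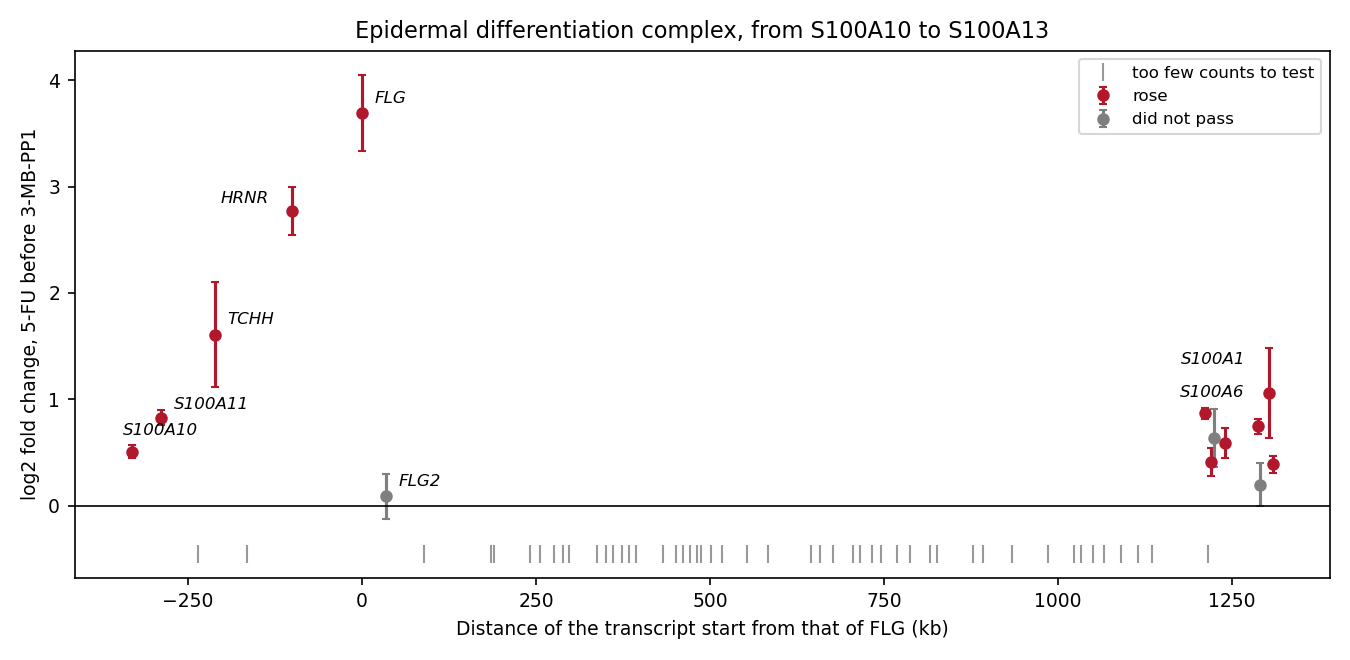
Log2 fold change with its standard error for 5-FU before 3-MB-PP1 against the distance of each transcript start from that of FLG, in kb, with ticks for genes that had too few counts to test. FLG (3.69) and HRNR (2.77) stand above TCHH (1.61) and FLG2 (0.09) beside them, and the S100 genes at both ends lie between 0.20 and 1.06.

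The S100 genes at the ends of the complex encode small calcium-binding proteins that many epithelia make. Of 10 tested, 8 rose with 5-FU before 3-MB-PP1 and 2 did not pass, where 19.6% of all genes were called higher and 19.8% lower. Their median was 0.62, and 0.36 under spike-in scaling. Of the 8, S100A1 passed the filter on low counts through the libraries with 5-FU, which favours a rise. The rises included S100A6 (0.87, adjusted p = 6.05e-14), S100A11 (0.83, adjusted p = 1.46e-10), S100A16 (0.75, adjusted p = 1.66e-09) and S100A1 (1.06, adjusted p = 0.0456). None of these 4 passed under spike-in scaling, at 0.64, 0.66, 0.53 and 0.93 (adjusted p = 1.00 each). The call of S100A1 was lost in 7 of the 8 fits that left out a library, at changes from 0.56 (without replicate 1 of 5-FU then 3-MB-PP1, adjusted p = 0.534) to 1.16 (without replicate 2 of DMSO then 3-MB-PP1, adjusted p = 0.0529). With 3-MB-PP1 alone, 1 of the 10 rose and 1 fell, where 11.6% of all genes were called higher and 16.9% lower.

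The small precursors of the cornified envelope, the LCE, SPRR, involucrin and loricrin genes, stayed near 0. Of 34 listed, 24 had no count in any library and 0 had enough counts to test. The 6 LCE1 genes, singled out after their values were seen, summed to 13 and 10 counts after 5-FU then 3-MB-PP1, 10 and 16 after 5-FU then DMSO, 5 and 0 after DMSO then 3-MB-PP1, and 1 and 0 after DMSO then DMSO. Summed over both libraries and scaled to 1e6 gene counts, this was 0.901 after 5-FU then 3-MB-PP1, 0.816 after 5-FU then DMSO, 0.0819 after DMSO then 3-MB-PP1 and 0.0379 after DMSO then DMSO. On the same scale a count of 0 allowed up to 0.284 in replicate 2 of DMSO then 3-MB-PP1 and 0.223 in replicate 2 of DMSO then DMSO (3 counts, counting error only). The LCE1 genes are nearly identical copies, so the counts of single members are uncertain.

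Outside the 7 genes, the lists of epidermal and related genes held 184 genes, of which 100 could be tested. With 5-FU before 3-MB-PP1, 40 rose, 13 fell and 47 did not pass, with a median change of 0.20 where that of all genes tested was 0.00. Thus 40.0% were called higher and 13% lower, against the 19.6% and 19.8% of all genes. The lists were drawn up with earlier results of these data known, and their counts are descriptions.

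**Figure D5:**
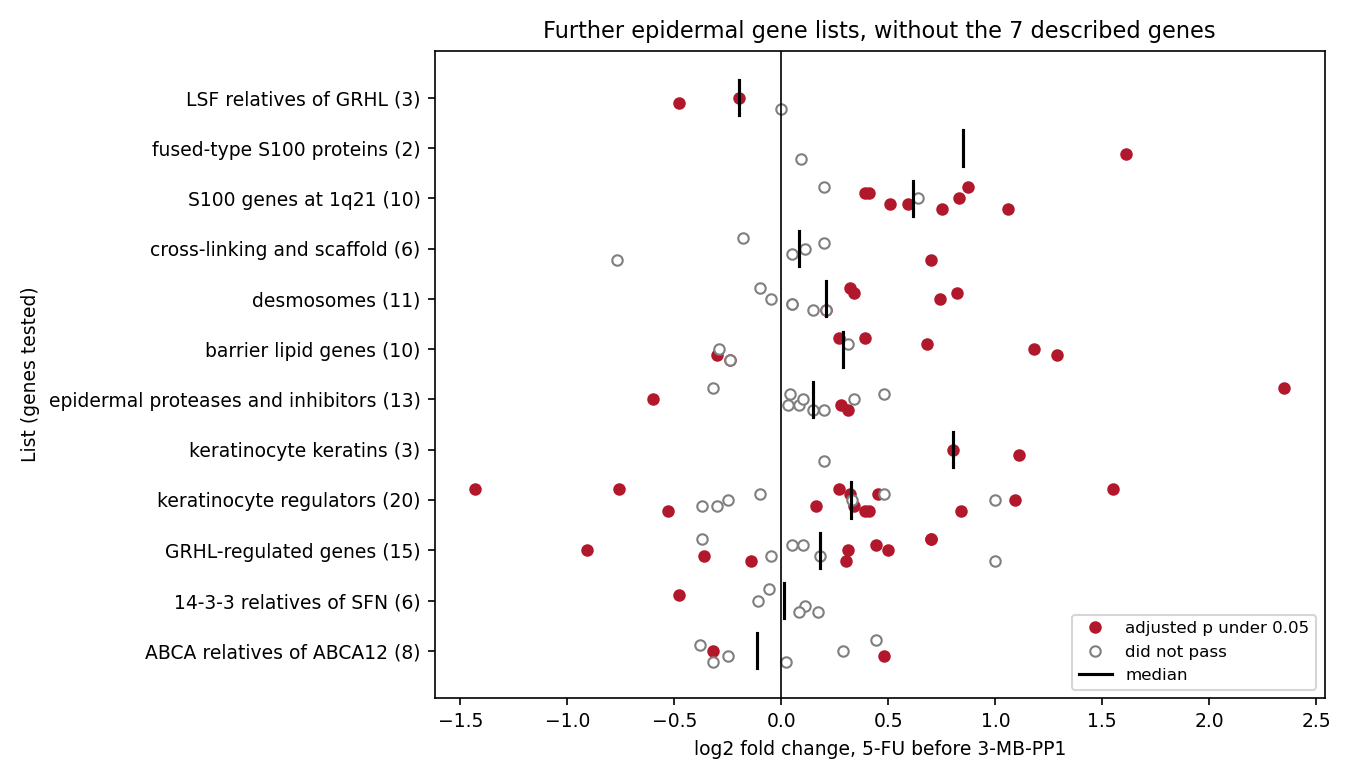
Log2 fold change for 5-FU before 3-MB-PP1 of each tested gene in 12 lists without the 7 described genes, with filled points for an adjusted p under 0.05 and a bar at the median of each list. S100 genes at 1q21 (median 0.62) and keratins (0.80, 3 genes) lie to the right, while LSF relatives (-0.20) and ABCA transporters (-0.12) do not.

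Transglutaminase 1 (TGM1), which cross-links the cornified envelope and whose mouse gene is a known target of Grhl3, had 4.91 and 4.09 CPM after 5-FU then 3-MB-PP1, 5.73 and 4.62 after 5-FU then DMSO, 2.73 and 2.92 after DMSO then 3-MB-PP1, and 1.71 and 1.14 after DMSO then DMSO. This order of groups is that of GRHL3, with the 2 groups with 5-FU overlapping. Whether GRHL3 acts on TGM1 in these cells was not tested. TGM1 rose with 5-FU before 3-MB-PP1 by 0.70 ± 0.20 (adjusted p = 0.00832), with 3-MB-PP1 alone by 0.96 ± 0.27 (adjusted p = 0.00801) and with 5-FU alone by 1.85 ± 0.25 (adjusted p = 1.37e-06). The first call was lost without replicate 1 of 5-FU then 3-MB-PP1 (0.56, adjusted p = 0.132), without replicate 1 of DMSO then 3-MB-PP1 (0.62, adjusted p = 0.135) and under DESeq2 (0.68, adjusted p = 0.115). The second was lost without replicate 1 of DMSO then 3-MB-PP1 (1.03, adjusted p = 0.0533), without replicate 2 of DMSO then DMSO (0.69, adjusted p = 0.146) and under DESeq2 (0.98, adjusted p = 0.0660). Neither of these 2 calls passed under spike-in scaling, at 0.51 and 1.21. The other 5 tested genes of the cross-linking and scaffold list did not pass with 5-FU before 3-MB-PP1.

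Among 15 tested genes known to be bound or regulated by GRHL factors, 6 rose, 3 fell and 6 did not pass with 5-FU before 3-MB-PP1. Of all genes tested, 19.6% were called higher and 19.8% lower there. The median of the list was 0.18, and -0.02 under spike-in scaling. Besides TGM1, the tight-junction protein CLDN4 (0.70, adjusted p = 3.08e-06) and the cadherin CDH3 (0.50, adjusted p = 9.43e-07) rose. The epithelial splicing factor ESRP1 fell (-0.91, adjusted p = 1.77e-10), as did the receptor ERBB3 (-0.36, adjusted p = 0.00610) and the adhesion protein EPCAM (-0.14, adjusted p = 0.0331). The call of ERBB3 was lost without replicate 1 of 5-FU then 3-MB-PP1 and without replicate 1 of DMSO then 3-MB-PP1, each at -0.32 (adjusted p = 0.0767 and 0.0975). That of EPCAM was lost without any 1 of the 4 libraries of the comparison, at -0.15 to -0.13.

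Of 20 tested keratinocyte regulators, 10 rose, 3 fell and 7 did not pass with 5-FU before 3-MB-PP1. Over all genes tested, 19.6% were called higher and 19.8% lower in that comparison. The repressor PRDM1, known from the granular layer, rose by 1.55 (adjusted p = 5.65e-06), the epithelial factor ELF3 by 1.09 (adjusted p = 9.46e-08) and the receptor NOTCH3 by 0.84 (adjusted p = 8.68e-06). These rises did not pass under spike-in scaling (1.45, 0.93 and 0.69). 3 fell: ZNF750, a driver of late epidermal differentiation, was at -1.43 (adjusted p = 0.00918), the Notch target HES1 at -0.76 (adjusted p = 0.00102) and CEBPA at -0.53 (adjusted p = 0.00821). ZNF750 had 7 and 5 counts after 5-FU then 3-MB-PP1 and 69 and 11 after DMSO then 3-MB-PP1. It exceeded 0.758 CPM only in the libraries of DMSO then 3-MB-PP1. ZNF750 therefore passed the filter on low counts only through that group, which favours a fall in this comparison. These 3 falls were each lost without 1 library: ZNF750 was at -1.20 without replicate 2 of 5-FU then 3-MB-PP1 (adjusted p = 0.114) and -1.13 without replicate 1 of DMSO then 3-MB-PP1 (adjusted p = 0.239), HES1 at -0.59 without the same DMSO then 3-MB-PP1 library (adjusted p = 0.0662) and CEBPA at -0.52 without replicate 1 of 5-FU then 3-MB-PP1 (adjusted p = 0.0574). With 3-MB-PP1 after 5-FU, 10 of the 20 fell and 0 rose, where 17.2% of all genes were called lower and 15.7% higher. The median of the list was -0.32 there, and -0.41 under spike-in scaling, which called 12 of all genes lower. In 3-MB-PP1 alone, 8 of the 20 fell and 2 rose, where 16.9% of all genes were called lower and 11.6% higher. There the median of the list was -0.21, and -0.03 under spike-in scaling.

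Of 11 tested desmosome genes, 5 rose, 0 fell and 6 did not pass with 5-FU before 3-MB-PP1. The shares of all genes there were 19.6% called higher and 19.8% called lower. The median of the desmosome list was 0.21, and 0.02 under spike-in scaling. The rises included the cadherin DSC3 (0.82, adjusted p = 8.59e-08), plakoglobin JUP (0.74, adjusted p = 4.49e-09), the p53 target PERP (0.34, adjusted p = 2.58e-05) and DSG2 (0.32, adjusted p = 7.97e-05). None of these passed under spike-in scaling, at 0.63, 0.58, 0.12 and 0.07. Of 10 tested barrier lipid genes, 5 rose, 2 fell and 3 did not pass, beside the same 19.6% and 19.8% of all genes. Their median was 0.29, and 0.10 under spike-in scaling. The epidermal lipoxygenases ALOX12B and ALOXE3 rose by 1.29 (adjusted p = 0.000205) and 1.18 (adjusted p = 0.00215), the sphingomyelinase SMPD1 by 0.68 (adjusted p = 0.00358) and the elongase ELOVL1 by 0.39 (adjusted p = 2.75e-05). ABHD5, the activator of a lipid hydrolase, was at -0.24 (adjusted p = 0.0229). Spike-in scaling left ALOX12B at 1.33, ALOXE3 at 1.19, SMPD1 at 0.32, ELOVL1 at 0.14 and ABHD5 at -0.49, and none of these passed.

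In these lists some calls hung on 1 library. Without replicate 1 of 5-FU then 3-MB-PP1, ALOXE3 was at 0.44 (adjusted p = 0.379), SMPD1 at 0.50 (adjusted p = 0.105) and ABHD5 at -0.24 (adjusted p = 0.0998). Without replicate 2 of the same group, ABHD5 was at -0.25 (adjusted p = 0.0833). Without replicate 1 of DMSO then 3-MB-PP1, SMPD1 was at 0.32 (adjusted p = 0.339), and without its replicate 2, ABHD5 was at -0.19 (adjusted p = 0.101).

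Of 13 tested epidermal proteases and inhibitors, 3 rose and 1 fell with 5-FU before 3-MB-PP1, where 19.6% of all genes were called higher and 19.8% lower. The median of the list was 0.15, and 0.08 under spike-in scaling. SERPINB5, or maspin, had 160 and 163 CPM after 5-FU then 3-MB-PP1 and 31.8 and 31.2 after DMSO then 3-MB-PP1, a rise of 2.35 ± 0.06 (adjusted p = 2.63e-19). The inhibitors SPINT1 (0.31, adjusted p = 0.000448) and SPINT2 (0.28, adjusted p = 8.06e-05) rose, and the cathepsin CTSL2 fell (-0.60, adjusted p = 0.000631). Under spike-in scaling SPINT1 (0.11), SPINT2 (0.06) and CTSL2 (-0.74) did not pass. Of 15 listed keratinocyte keratins, 3 could be tested; KRT15 rose by 1.11 (adjusted p = 9.36e-06) and KRT80 by 0.80 (adjusted p = 4.44e-05), and KRT10 was at 0.20 (adjusted p = 0.133). The keratins of simple epithelia rose in the same libraries, KRT19 by 0.93, KRT8 by 0.63 and KRT18 by 0.45 (adjusted p = 1.11e-13, 3.22e-12 and 2.01e-09). Under spike-in scaling KRT15 (1.09), KRT80 (0.63), KRT19 (0.71), KRT8 (0.40) and KRT18 (0.24) did not pass. The summed intestinal markers were 4303 and 4251 CPM after 5-FU then 3-MB-PP1 and 2881 and 2903 after DMSO then 3-MB-PP1, most of it from KRT8, KRT18 and KRT19. The other markers did not rise: EPCAM fell (-0.14, adjusted p = 0.0331), CDH1 (-0.05) and CDX2 (0.17) did not pass, and VIL1 could not be tested. The part of the intestinal markers in the epidermal rises was not tested. Of the other marker lists, the fibroblast gene COL1A1 rose (0.49, adjusted p = 0.00119) and the endothelial gene KDR fell (-0.58, adjusted p = 0.0197), both with calls lost without replicate 1 of DMSO then 3-MB-PP1 (0.39, adjusted p = 0.0674, and -0.48, adjusted p = 0.261). COL1A1 also lost its call without replicate 2 of 5-FU then 3-MB-PP1 (0.36, adjusted p = 0.0624) and KDR without replicate 1 of that group (-0.48, adjusted p = 0.170).

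The response to 3-MB-PP1 differed with 5-FU from that without it for 4.11% of genes tested, in either direction. Of the 100 listed genes tested, 1 differed in the positive and 7 in the negative direction, among them TGM1 (-1.15 ± 0.33, adjusted p = 0.0497), whose call was lost in 6 of the 8 fits that left out a library, at -1.48 to -0.89. The corresponding values of the 7 described genes carry no test. Beside GRHL3 and SFN they were -0.61 ± 0.40 for HRNR, -0.78 ± 0.65 for ABCA12, 0.37 ± 0.62 for FLG, 0.10 ± 0.21 for GRHL1 and -0.24 ± 0.44 for GRHL2, and that of ABCA12 was -2.71 without replicate 1 of DMSO then DMSO and 0.03 without its replicate 2.

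The 5 genes whose mean log2 CPM over the 4 groups was most like that of GRHL3 were EBI3, KRTAP2-1, C1orf116, BTBD19 and C5orf40. They were picked from 395 genes whose group means spanned at least 2 on the log2 scale, and Pearson's r over these 4 points ran from 0.992 for EBI3 to 0.977 for C5orf40. With 4 points that share the same 8 libraries, r is a description. EBI3, an interleukin subunit, averaged 1.56 CPM after 5-FU then 3-MB-PP1, 1.81 after 5-FU then DMSO, 0.633 after DMSO then 3-MB-PP1 and 0.308 after DMSO then DMSO.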

How the data were processed

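RNA-seq of HCT-116 cells comprised 8 libraries in 4 treatment groups of 2. The deposited tables held a whole read count per transcript and the RPKM that the authors made from it; alignment used TopHat2 2.0.13 and hg19, per the submitters' processing notes. No source used here gives the counter, the annotation or the use of strand. Of 41643 transcripts, 6260 lacked a symbol and 5902 of these were named by accession through RefSeq. For each symbol, 1 transcript was used, that of highest mean count, and 92 ERCC spike-ins were set aside (2.18% to 4.16% of the authors' totals).

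Counts were fitted with edgeR 4.0.16 in R 4.3.3: filterByExpr, TMM scaling, 1 model of 4 groups with 4 residual degrees of freedom, two-sided quasi-likelihood F tests, and calls at an adjusted p under 0.05. Standard errors come from the F statistics, and intervals of count ratios are exact and cover counting error only. Alternatives were RLE factors, DESeq2 1.42.0, no filter, spike-in scaling, the longest transcript, a replicate block and leaving out each library. The 7 genes and all lists were chosen with earlier results of these data known. Named genes were the 7, up to 4 further genes per list by size of change with 5-FU before 3-MB-PP1 among those called, those called against their list, 3 p53 targets and the 5 most like GRHL3. Genes with a differing response to 3-MB-PP1 are named in addition, and 1 gene that the rule names is not reported here.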

Additional observations from a re-analysis of the deposited data

Results flagged for a closer look

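For 13 listed genes outside the 7 described ones, the response to 3-MB-PP1 after 5-FU differed from the response to 3-MB-PP1 alone by edgeR's test of the difference. The values are log2 differences, and a negative one means a lower response after 5-FU. The p53 targets had -0.93 for MDM2 (adjusted p = 1.69e-09), -0.67 for CDKN1A (adjusted p = 5.54e-07) and -0.46 for GDF15 (adjusted p = 0.0127). Among the keratinocyte regulators, OVOL1, a zinc finger factor of epidermal differentiation, stood at -1.27 (adjusted p = 0.00291), HES1 at -1.15 (adjusted p = 0.00343), the kinase RIPK4 at -0.64 (adjusted p = 0.0188), KLF4 at -0.57 (adjusted p = 0.0363) and CEBPB at -0.50 (adjusted p = 0.0317). OVOL1 had 4.04 and 4.94 CPM after 5-FU then 3-MB-PP1 and 10.1 and 9.72 after 5-FU then DMSO, but 5.56 and 6.49 after DMSO then 3-MB-PP1 and 4.36 and 6.25 after DMSO then DMSO. RIPK4 rose with 3-MB-PP1 alone by 0.75 (adjusted p = 2.30e-05) and stood at 0.12 after 5-FU (adjusted p = 0.436). TGM1 differed by -1.15 (adjusted p = 0.0497), S100A6 by -0.24 (adjusted p = 0.0363), KRT19 by -0.38 (adjusted p = 0.00214) and KRT18 by -0.23 (adjusted p = 0.0223), and the 14-3-3 gene YWHAQ by 0.23 (adjusted p = 0.0428). With 2 libraries per group, no test for single outlying libraries was possible.

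The calls of MDM2, CDKN1A, OVOL1 and KRT19 were kept without each of the 8 libraries. Those of the other 9 were lost without at least 1. When replicate 1 of 5-FU then 3-MB-PP1 was left out, CEBPB (-0.49), KLF4 (-0.51), KRT18 (-0.26), RIPK4 (-0.64), S100A6 (-0.25), TGM1 (-1.31) and YWHAQ (0.21) did not pass. Without its replicate 2, these were CEBPB (-0.56), GDF15 (-0.44), KRT18 (-0.25), RIPK4 (-0.68), S100A6 (-0.28), TGM1 (-1.05) and YWHAQ (0.21). In the fit without replicate 1 of 5-FU then DMSO, CEBPB (-0.38), GDF15 (-0.39), KLF4 (-0.50), RIPK4 (-0.65), S100A6 (-0.23), TGM1 (-1.01) and YWHAQ (0.19) did not pass, and without its replicate 2 KRT18 (-0.20). For replicate 1 of DMSO then 3-MB-PP1, these were CEBPB (-0.51), HES1 (-0.98), KLF4 (-0.60), KRT18 (-0.23), RIPK4 (-0.57), TGM1 (-1.23) and YWHAQ (0.20), and without its replicate 2 S100A6 (-0.21). In the fit that lacked replicate 1 of DMSO then DMSO, CEBPB (-0.44), GDF15 (-0.49), KLF4 (-0.44), KRT18 (-0.23), RIPK4 (-0.70), TGM1 (-1.48) and YWHAQ (0.25) did not pass, and without its replicate 2 GDF15 (-0.44), RIPK4 (-0.59), S100A6 (-0.20), TGM1 (-0.89) and YWHAQ (0.20). None of the 13 passed under spike-in scaling, KLF4 (-0.58, adjusted p = 0.120), CEBPB (-0.51, adjusted p = 0.109) and RIPK4 (-0.63, adjusted p = 0.111) did not pass under DESeq2, and YWHAQ did not with RLE factors (0.23, adjusted p = 0.0504).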

How the results depend on the processing

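For the 7 genes, 490 values were recomputed under 14 settings, and 464 kept their direction and side of the threshold or moved by less than their error. The 5 rises with 5-FU before 3-MB-PP1 were called under each setting except spike-in scaling, which kept FLG, HRNR and ABCA12 and left GRHL3 at 1.30 (adjusted p = 0.527) and SFN at 0.63 (adjusted p = 1.00). Under that scaling the median of all genes was -0.189 in this comparison and -0.115 with 3-MB-PP1 after 5-FU, where no gene of the 7 was called. HRNR with 3-MB-PP1 alone, -0.09 and not called, was 0.05 under spike-in scaling, and without 1 library it ran from -0.17 to 0.06. Under spike-in scaling ESRP1 in that comparison was 0.01, and the difference in response of YWHAQ was -0.10. The cause was not tested.

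Genes called numbered 6199 with 5-FU before 3-MB-PP1, 5170 with 3-MB-PP1 after 5-FU, 4475 with 3-MB-PP1 alone, 6890 with 5-FU alone and 645 for the difference in response. In that order, spike-in scaling gave 140 (20 higher, 120 lower), 53 (41 and 12), 112 (107 and 5), 243 (93 and 150) and 0, where the spread between spike-in totals enters each test. DESeq2 gave 3265 with 3-MB-PP1 after 5-FU, 2577 with 3-MB-PP1 alone and 369 for the difference. Leaving out 1 library gave 4522 to 6255, 3336 to 5362, 2981 to 4561, 5452 to 7023 and 246 to 919. Same-numbered replicates were not shown to be paired (correlations of -0.058 to 0.046 between groups), and the replicate block gave 6250, 5228, 4512, 6930 and 675 calls and changed no call of the 7 genes; among the other named genes it ended those of S100A1 with 5-FU before 3-MB-PP1 (1.04, adjusted p = 0.0639) and of the difference for TGM1 (-1.10, adjusted p = 0.0563). Of 48 further genes called with 5-FU before 3-MB-PP1, 31 kept their call without each library. Of 143 called values of further named genes over the comparisons, 11 kept their call under spike-in scaling, 130 lost it and 2 (ESRP1 and YWHAQ) changed direction. DESeq2 ended the calls of S100A1, TGM1, SMPD1, ABHD5, CEBPA, EPCAM, ERBB3, KDR and UBP1 in that comparison (adjusted p = 0.0540 to 0.302). FLG, ABCA12 and GRHL3 had 7 counts or fewer in each DMSO then DMSO library, which limits their fold changes.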
